A study of Mus musculus with 12 samples.

Results

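The comparison described here set tumors from mice given olaparib together with ADU-S100 against tumors from mice given vehicle, by the mRNA levels of the immune genes on an nCounter panel. It addressed which chemokine, T cell, interferon and stromal genes differed at 3 days between tumors that received both drugs and tumors that received neither. The members are the 3 tumors titled Olaparib+ADUS100 (numbers 1251, 1270 and 1539) and the 3 titled Vehicle (numbers 1269, 1529 and 1536), that is 6 of the 12 tumors of the study. The other 6, 3 with ADU-S100 alone and 3 with olaparib alone, entered the filter and the estimate of the spread, and are shown in the plots and described at the end. Values below are always given in the order of these tumor numbers.

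All tumors came from K14-Cre;Brca1f/f;Trp53f/f mice (labelled K14-Cre;Brcaf/fTrp53f/f), in which Cre under a keratin promoter deletes Brca1 and Trp53 in epithelial cells. Tumor pieces grew as transplants in a mammary fat pad of FVB/129P2 females of matching background, so the stroma and immune cells supplied by the host carried both genes intact. Treatment started at a tumor volume of 150 to 300 mm3. Combination mice received olaparib, an inhibitor of the DNA repair enzyme PARP, at 50 mg/kg daily by intraperitoneal injection, and a single injection of 50 μg ADU-S100 in 40 μl into the tumor. Vehicle mice received the same routes with the solvents only. Each tumor carries its own number. Numbers 1251, 1270 and 1269 begin with 12 and numbers 1539, 1529 and 1536 with 15, and what the numbering stands for is not labelled.

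ADU-S100 is a synthetic cyclic dinucleotide that binds STING, the sensor downstream of cytosolic DNA. Activated STING recruits the kinase TBK1, which phosphorylates the transcription factor IRF3, and type I interferon and NF-kappaB target genes are then transcribed. Type I interferon switches on a large set of interferon-stimulated genes, whereas interferon-gamma from T and NK cells is the classical inducer of Cxcl9 and of MHC class II. The chemokines Cxcl9, Cxcl10 and Cxcl11 attract activated T cells that carry the receptor Cxcr3, Ccl5 attracts T cells and other leukocytes, and Xcl1 attracts cross-presenting dendritic cells through Xcr1. Unrepaired DNA damage under a PARP inhibitor in cells without BRCA1 is a known source of cytosolic DNA.

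The values are normalized counts, that is counts of color-coded probes scaled by the authors against positive controls and housekeeping genes. In these 6 tumors the value of 1 count was between 0.810 and 0.824 normalized counts in the combination group and 0.682, 1.49 and 0.693 in the vehicle group. Recovered counts totaled 1339258 to 1491854 per combination tumor and 632152 to 1519471 per vehicle tumor, the lowest being vehicle tumor 1529. A single gene, Lcn2, took 12.6 to 25.9% of these totals. Of the 750 genes, 689 reached a normalized count of 20 in at least 3 of the 12 tumors and were tested.

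In 138 of the 689 genes, the 3 combination values lay all above or all below the 3 vehicle values. In 127 genes (18.4%) they lay above and in 11 genes (1.60%) below. This separation is how the genes described below were chosen, so it is a description with no test, and with 3 tumors against 3 no exact permutation test can go below 0.1. Limma, fitted to log2(normalized count + 1) over all 12 tumors, called 0 genes at an adjusted p below 0.05 (smallest adjusted p = 0.278). Without adjustment, 52 genes (7.55%) were higher and 1 gene (0.145%), Thy1, was lower at p below 0.05, against 34.5 genes that this threshold passes by chance among 689, and 50 of the 52 were among the 127. A fit to the 6 tumors alone called Gbp5 and Cxcl11, and the methods' t-test called these genes and Itgal, after Benjamini-Hochberg adjustment. The edgeR test on recovered counts called 0 genes (48 higher and 4 lower at an unadjusted p below 0.05 with the authors' factors). Leaving out vehicle tumor 1536 or combination tumor 1251 brought the 52 to 24 or 30. No gene below is therefore said to have changed, and "higher" and "lower" refer to these 6 tumors.

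The scaling set how many genes separated in each direction, and which. With each tumor scaled to the same median, 77 genes were higher and 38 lower in every combination tumor, with quantile normalization 78 and 52, with a background subtracted 129 and 12, and with recovered counts scaled by the TMM method 67 and 83. Of the 127 higher and 11 lower genes, these settings shared 66 and 4, 75 and 9, 124 and 11, and 64 and 11 in the same order. The median log2 difference of all genes was 0.21 as deposited, 0.02 after median scaling, -0.05 after quantile normalization and -0.18 in the edgeR fit with TMM. Under all 5 scalings, 54 genes were higher and 4 lower in every combination tumor. Leaving out a tumor makes separation easier by construction, and the 127 became 202 without vehicle tumor 1269 and 250 without 1529, while the 11 became 99 without vehicle tumor 1269, 44 without 1536, 37 without combination tumor 1539 and 19 without 1270. The 54 genes held 8 chemokine genes, 17 T cell, cytotoxic and NK cell genes, 6 interferon genes, 8 antigen presentation genes and 1 stromal gene, with 6 genes of other cell types and 8 of no list.

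**Figure D1:**
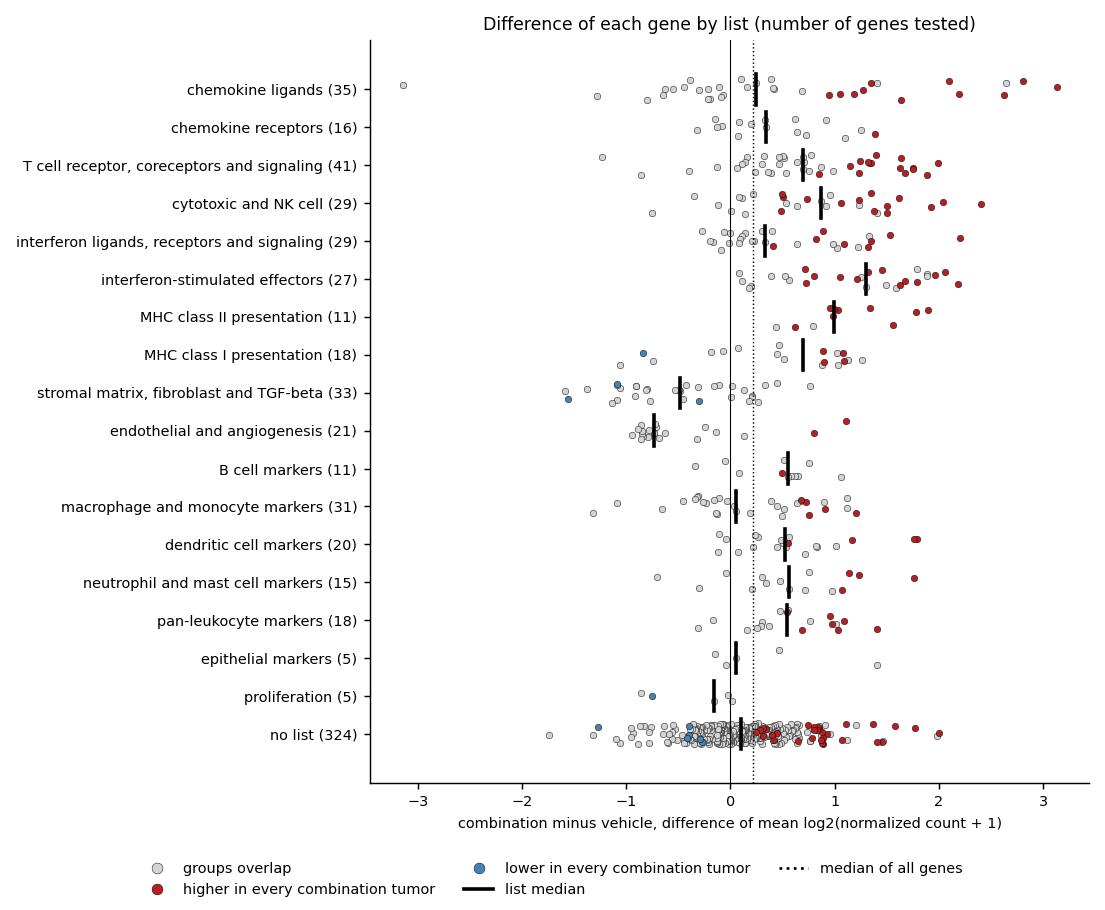
Each point is 1 of the 689 genes, placed by its combination minus vehicle difference of mean log2(normalized count + 1) and sorted into lists, with the number of genes tested per list in parentheses. Red points were higher and blue points lower in every combination tumor, gray points overlapped, black bars are list medians and the dotted line is the median of all genes (0.21). The medians of the interferon-stimulated effectors (1.30) and the MHC class II genes (0.998) lay farthest to the right (in edgeR with TMM they were 0.61 and 0.68), and those of the stromal matrix (-0.48) and endothelial (-0.73) lists to the left of 0.

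Of the 51 chemokine and chemokine receptor genes tested, 12 (23.5%, beside 18.4% of all genes) were higher and 0 lower in every combination tumor. The share was near that of all genes. At an unadjusted p below 0.05 by limma, 8 of the 51 were higher, beside 52 of all 689 (7.55%). The 12 were 11 of 35 ligands, or 31.4% (Cxcl9, Ccl5, Xcl1, Cxcl11, Cxcl10, Ccl22, Ccl1, Ccl4, Cxcl2, Cxcl1 and Cxcl16) and 1 of 16 receptors, or 6.25% (Ccr6). The median log2 difference of all 51 was 0.33, little above the 0.21 of all genes, and it became -0.08 in the edgeR fit with TMM, where that of all genes was -0.18. Without vehicle tumor 1529 the 12 became 21 and the median 0.67, with 0.43 over all genes, and without vehicle tumor 1269 the median was 0.16, with 0.16 over all genes. Ligands thus lay at both ends of the range, from Cxcl9 at 3.13 to Ccl6 at -3.14.

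Cxcl9 had the largest positive difference of all 689 genes. It measured 80.5, 81.8 and 26.3 normalized counts in the vehicle tumors and 244, 713 and 707 in the combination tumors, a log2 difference of 3.13 ± 0.84 (SE, n = 3 and 3, adjusted p = 0.278 by limma). The lowest combination tumor, 1251, was still well above the highest vehicle tumor. Cxcl10 measured 162, 112 and 123 in the vehicle tumors and 508, 460.03 and 751 in the combination tumors (2.10 ± 0.74, adjusted p = 0.438). For Cxcl11 the values were 37.5, 32.7 and 33.9 against 154, 144 and 193 (2.20 ± 0.72, adjusted p = 0.401), and both groups were tight. All 3 ligands of Cxcr3 were thus separated by a clear gap. The receptor Cxcr3 itself, on activated T cells, overlapped between the groups, with 25.9, 68.4 and 20.8 normalized counts against 48.6, 73.4 and 72.97, because vehicle tumor 1529 lay within the combination range.

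Ccl5, made by T cells, NK cells and interferon-treated tumor cells, measured 207, 75.8 and 51.3 normalized counts in the vehicle tumors and 1372, 462 and 446 in the combination tumors. Its log2 difference of 2.80 ± 0.70 had the smallest p of all genes (adjusted p = 0.278 by limma). Combination tumor 1251 was the highest for Ccl5 and the lowest for Cxcl9, so the chemokines did not share a single order of tumors. Xcl1, a product of activated CD8+ T cells and NK cells, measured 21.8, 29.7 and 6.93 against 97.2, 181 and 72.1 (2.62 ± 0.72, adjusted p = 0.278). Its receptor gene Xcr1, which marks cross-presenting dendritic cells, measured 12.96, 17.8 and 10.4 against 11.3, 10.7 and 14.8, all below 20 normalized counts in these 6 tumors.

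Ccl22, a dendritic cell and macrophage ligand for Ccr4, measured 18.4, 34.2 and 20.1 normalized counts in the vehicle tumors and 64.8, 70.9 and 90.2 in the combination tumors (1.63 ± 0.49, adjusted p = 0.278). Ccr6, a receptor on B cells and on part of the helper T cells, measured 15.7, 29.7 and 12.5 against 55.1, 65.95 and 31.98 (1.39 ± 0.61, adjusted p = 0.599), and vehicle tumor 1529 came close to combination tumor 1539. The neutrophil attractants Cxcl1 and Cxcl2 were less stable. Cxcl2 measured 15.01, 17.8 and 24.2 against 105, 31.3 and 25.4, so that its separation rested on 24.2 against 25.4 at the edge, and neither gene separated under all 5 scalings. Cxcl13, a B cell attractant, had the largest positive difference among the ligands that overlapped (2.65 ± 1.02), with 302, 43.1 and 15.2 against 593, 249 and 357: vehicle tumor 1269 exceeded combination tumor 1270. Cxcl12, a stromal and endothelial ligand, measured 159.6, 3101 and 287 against 142, 331 and 209.9, and vehicle tumor 1529 alone was high.

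**Figure D2:**
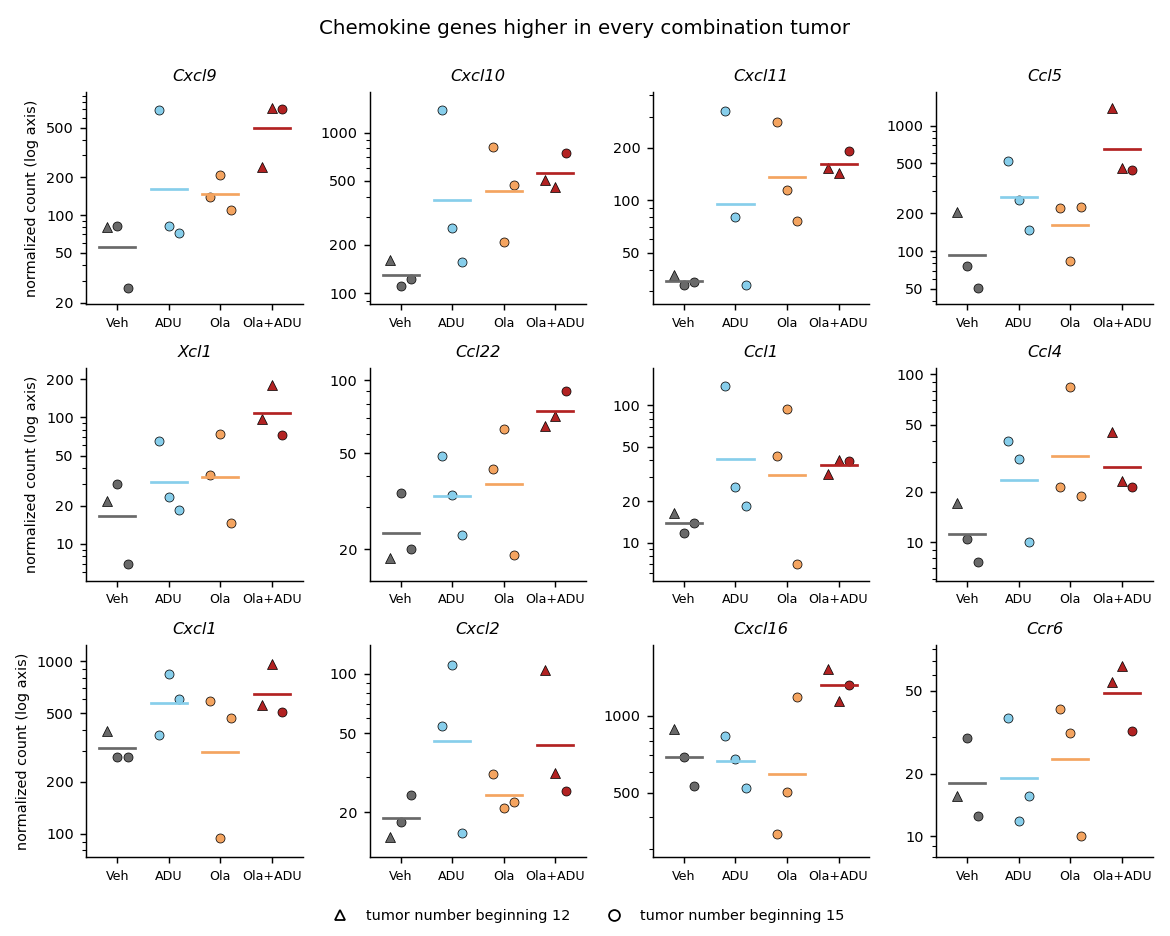
Normalized counts (log axis) of the 12 chemokine genes that were higher in every combination tumor, for vehicle (Veh), ADU-S100 (ADU), olaparib (Ola) and combination (Ola+ADU) tumors. Points are single tumors, triangles those with numbers beginning with 12 and circles those beginning with 15, and lines are means on the log2 scale. Cxcl9, Cxcl10, Cxcl11 and Ccl5 show a wide gap between vehicle and combination tumors, and ADU-S100 tumor 1506 reached or passed the lowest combination tumor for all 4.

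The group called T cell here also holds cytotoxic and NK cell genes. Of its 70 genes tested, 28 (40.0%, beside 18.4% of all genes) were higher and 0 lower in every combination tumor, and 63 had a higher mean there. At an unadjusted p below 0.05 by limma, 12 were higher and 1 (Thy1) lower, beside 52 (7.55%) and 1 (0.145%) of all 689 genes. The median log2 difference of the 70 was 0.72 as deposited, between 0.32 and 1.01 under the other scalings and 1.12 without vehicle tumor 1529. The 28 genes became 18 with quantile normalization and 14 with a filter at 50, which tests fewer genes. The 28 were 14 of 41 T cell receptor, coreceptor and signaling genes (Cd69, Il2ra, Cd3e, Cd4, Zap70, Cd3g, Icos, Cd8a, Pdcd1, Sh2d1a, Cd6, Spn, Tigit and Cd7) and 14 of 29 cytotoxic and NK cell genes (Klrk1, Slamf7, Il2rb, Cd160, Klra2, Tnfsf10, Klra7, Ncr1, Prf1, Gzmb, Il12rb2, Eomes, Gzmk and Sh2d1b1). In bulk RNA of this kind, more cells of a type and more RNA per cell cannot be told apart.

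The defining genes of T cells were measured at low levels. Cd3e, a chain of the T cell receptor complex, had 14.3, 19.3 and 6.23 normalized counts in the vehicle tumors and 29.2, 70.1 and 39.4 in the combination tumors (1.75 ± 0.64, adjusted p = 0.456). Cd3g, another chain, had 23.9, 29.7 and 18.7 against 60.8, 109 and 66.4 (1.64 ± 0.49, adjusted p = 0.278). Cd3d, the remaining CD3 chain on the list, overlapped at 27.3, 50.5 and 21.5 against 51.04, 97.3 and 48.4. Cd4, the coreceptor of helper T cells, had 30.01, 49.1 and 25.6 against 112, 129 and 107 (1.75 ± 0.52, adjusted p = 0.278). Cd8a, the coreceptor of cytotoxic T cells, had 6.82, 11.9 and 6.93 against 24.3, 35.4 and 14.8 (1.39 ± 0.57, adjusted p = 0.504), and vehicle tumor 1529 was within 3 normalized counts of combination tumor 1539. Many of these vehicle values lay below 20 normalized counts, the minimum of the filter.

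Il2ra, the inducible chain of the interleukin-2 receptor, measured 20.5, 44.6 and 24.9 normalized counts in the vehicle tumors and 162, 88.2 and 87.7 in the combination tumors (1.89 ± 0.48, adjusted p = 0.278 by limma). Cd69, an early activation antigen of lymphocytes, measured 42.3, 40.1 and 22.9 against 149.9, 119 and 147 (1.99 ± 0.70, adjusted p = 0.438). Icos, a costimulatory receptor, measured 17.1, 28.2 and 6.93 against 43.7, 56.9 and 46.7. The inhibitory receptors behaved unevenly: Pdcd1 (PD-1) measured 19.8, 35.7 and 19.4 against 56.7, 87.4 and 49.2 and Tigit 11.6, 28.2 and 15.2 against 29.2, 51.1 and 40.2, whereas Ctla4, at 17.1, 34.2 and 15.2 against 31.6, 47.8 and 31.2, and Lag3, at 58.7, 93.7 and 35.3 against 72.1, 106 and 99.2, overlapped. Foxp3, the transcription factor of regulatory T cells, also overlapped, with 4.09, 22.3 and 11.8 against 16.2, 18.1 and 12.3.

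Among cytotoxic and NK cell genes, Klrk1, which encodes the activating receptor NKG2D, measured 19.8, 22.3 and 9.01 normalized counts in the vehicle tumors and 87.5, 94.8 and 84.4 in the combination tumors (2.41 ± 0.61, adjusted p = 0.278). Slamf7, a receptor of NK cells, activated T cells and plasma cells, measured 24.6, 28.2 and 11.1 against 70.5, 96.5 and 89.4 (2.04 ± 0.53, adjusted p = 0.278). Both stood apart from all vehicle tumors by a factor of over 2. Il2rb, the signaling chain of the interleukin-2 and interleukin-15 receptors, measured 20.5, 90.7 and 40.9 against 95.6, 309.98 and 149, with vehicle tumor 1529 just under combination tumor 1251. The effector genes were measured at still lower levels: Gzmb (granzyme B) measured 6.14, 8.92 and 5.54 against 14.6, 22.3 and 10.7, and Prf1 (perforin) 3.41, 7.43 and 4.16 against 10.5, 20.6 and 9.02. Gzma (granzyme A) overlapped at 9.55, 28.2 and 15.2 against 23.5, 119.5 and 30.3, and Ifng, with 6.14, 11.9 and 7.62 normalized counts against 8.91, 9.89 and 9.02, did not pass the filter. Over all 127 higher genes, 15 had at most 20 recovered counts in every vehicle tumor.

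Combination tumor 1270 had the highest combination value for 19 of the 28 T cell, cytotoxic and NK cell genes, and vehicle tumor 1529 had the highest vehicle value for 21 of them. Without vehicle tumor 1529, 50 genes of this group would be higher in every combination tumor, a count that leaving out any tumor can only raise among genes kept by the filter. The leukocyte gene Ptprc (CD45) overlapped, with 152, 509.9 and 285 normalized counts in the vehicle tumors and 390.5, 423 and 422 in the combination tumors (0.55 ± 0.57, from 0.11 without vehicle tumor 1269 to 0.98 without 1529). The sum of 19 pan-leukocyte genes was 3807 to 7028 in the vehicle tumors and 6780 to 7047 in the combination tumors. Of the 18 tested, 7 (38.9%, beside 18.4% of all genes) were higher in every combination tumor, near the 40.0% of the T cell group. The 31 macrophage and monocyte genes summed to 25718 to 45203 and to 39837 to 46419, which also overlapped. Of the 31, 5 (16.1%) were higher in every combination tumor. The 44 T cell receptor, coreceptor and signaling genes summed to 4428 to 9494 and to 5929 to 6222, which overlapped. The 38 cytotoxic and NK cell genes summed to 640 to 1232 and to 1723 to 2979. The part of leukocyte content in the T cell values was not tested.

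**Figure D3:**
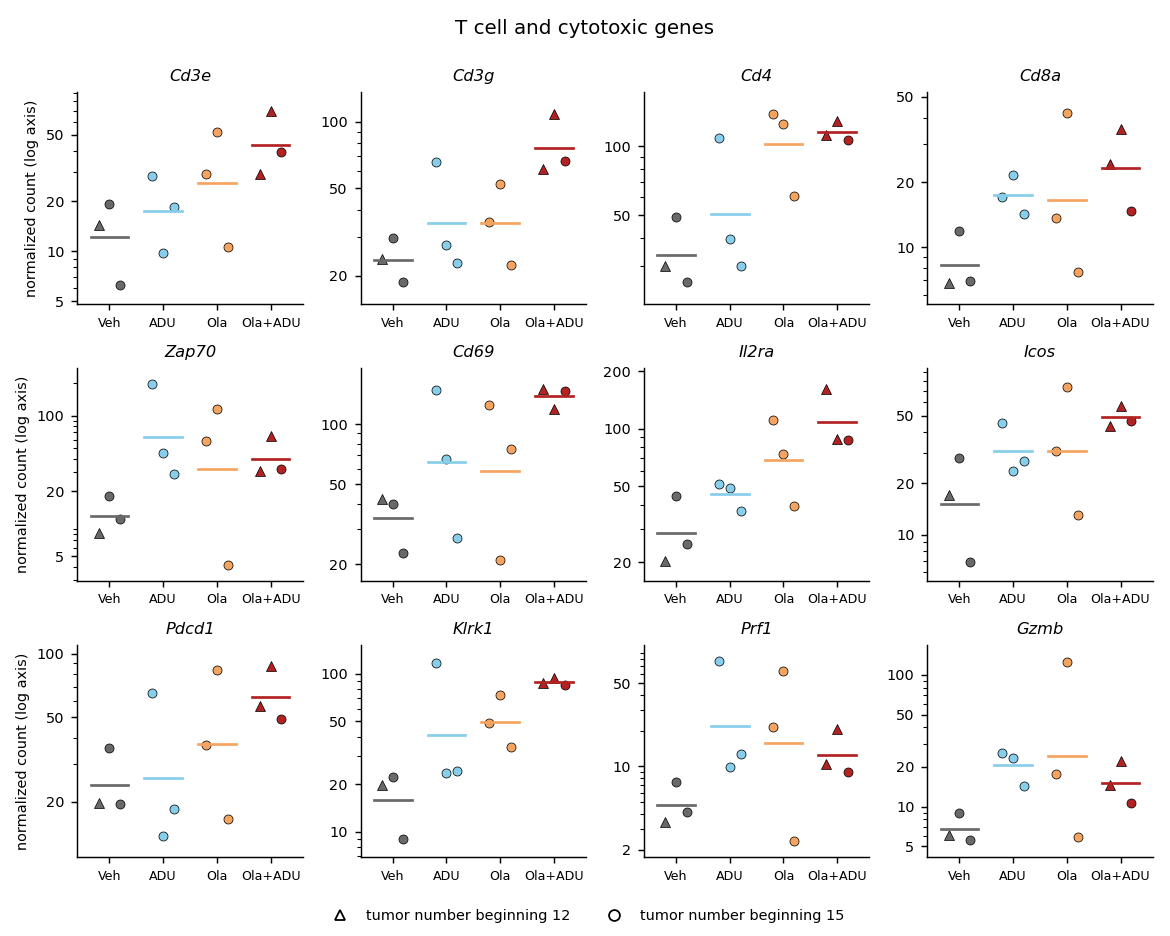
Normalized counts (log axis) of 12 T cell and cytotoxic genes in the 12 tumors, drawn as for the chemokines, with lines at the means on the log2 scale. Il2ra, Cd69 and Klrk1 are separated by wide gaps, whereas Cd8a, Prf1 and Gzmb lie below 40 normalized counts in every vehicle and combination tumor. ADU-S100 tumor 1506 reached or passed the lowest combination tumor for Klrk1.

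Of 56 interferon genes tested, 21 (37.5%, beside 18.4% of all genes) were higher and 0 lower in every combination tumor. At an unadjusted p below 0.05 by limma, 11 of the 56 were higher, beside 52 of all 689 (7.55%). The 27 interferon-stimulated effectors had a median log2 difference of 1.30 (0.61 in edgeR with TMM) with all 27 means higher in the combination tumors, and 13 of them separated (Gbp5, Ifi44, Ifi44l, Gbp2b, Oasl1, Irgm2, Bst2, Ifit2, Cd274, Xaf1, Ifi35, Pdcd1lg2 and Isg20). Of the 29 ligands, receptors and signaling genes, 8 separated, among them Irf7, Stat2, Zbp1, Socs1, Irf8, Irf1 and Tmem173, with a list median of 0.33. The median over all 56 was 0.81 as deposited, between 0.34 and 0.87 under the other scalings and 0.52 without vehicle tumor 1536. The genes of the interferons themselves (Ifna1, Ifna2, Ifna4, Ifnb1 and Ifnl2) did not separate. Ifnb1, the type I interferon gene closest to STING signaling, had 13.6, 10.4 and 9.70 normalized counts in the vehicle tumors and 15.4, 9.07 and 20.5 in the combination tumors at this time.

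Gbp5, a guanylate-binding protein induced by interferon-gamma, had tight groups. It measured 95.5, 96.6 and 82.4 normalized counts in the vehicle tumors and 463, 429 and 371 in the combination tumors (2.19 ± 0.72, adjusted p = 0.401 by limma over 12 tumors). Gbp2b, of the same family, measured 769, 418 and 425 against 2069, 1513 and 1812 (1.79 ± 0.60, adjusted p = 0.401). Oasl1, an interferon-induced relative of the oligoadenylate synthetases, measured 152, 186 and 105 against 546, 385 and 468 (1.68 ± 0.76, adjusted p = 0.619). For each of these 3 genes the gap between the groups was wider than the range of the vehicle tumors on the log2 scale. Socs1, an inhibitor of JAK signaling that is itself induced by interferon, measured 136, 146 and 94.9 against 251, 306 and 237 (1.09 ± 0.42, adjusted p = 0.472).

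Other interferon genes were already high in vehicle tumor 1269. Irf7, the transcription factor that amplifies type I interferon, measured 2201, 763 and 201 normalized counts in the vehicle tumors and 3976, 2460.1 and 3379 in the combination tumors (2.20 ± 0.90, adjusted p = 0.504). Ifi44 measured 4140.5, 1885 and 606 against 7587, 6501 and 6984 (2.06 ± 0.78, adjusted p = 0.472). Vehicle tumor 1269 was thus closer to the combination tumors than to vehicle tumor 1536 for both genes on the log2 scale. Ifi44l measured 785, 306 and 115 against 1022, 1704 and 959 (1.97 ± 0.93), and the GTPase gene Irgm2 390.2, 214 and 69.96 against 562, 674 and 463 (1.63 ± 0.64). The size of these differences rested on vehicle tumor 1536, without which they were 1.31 for Irf7, 1.33 for Ifi44, 1.27 for Ifi44l and 0.95 for Irgm2. Ifit1, Ifit3, Oas2 and Isg15 had differences of up to 1.89 but overlapped, since vehicle tumor 1269 reached the combination range: Oas2, a sensor of double-stranded RNA, measured 3401, 1018 and 227 against 2224, 4801 and 3761. Vehicle tumor 1269 had the highest vehicle value for 15 of the 21 separated genes and vehicle tumor 1529 for the other 6.

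Split by tumor number, the effectors had a median difference of 0.44 among tumors with numbers beginning with 12 (2 combination tumors against 1 vehicle tumor) and 1.81 among those beginning with 15 (1 against 2). For the T cell group the values were 1.07 and 0.53, and for the chemokine group 0.995 and 0.11. Over all 689 genes they were 0.48 and 0.12. The effectors were thus near all genes in the first series, and the chemokine group in the second. Irf7 differed by 0.51 and 3.11, whereas Gbp5 differed by 2.21 and 2.04. With so few tumors in each, the number series and single tumors cannot be told apart. The count of 21 interferon genes became 34 without vehicle tumor 1269, and 7 with median scaling, 16 with quantile normalization and 6 with TMM. The 6 interferon genes that separated under all 5 scalings were Socs1, Irf8, Gbp5, Ifi44, Gbp2b and Oasl1.

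Tmem173, the gene of STING itself, measured 498, 544 and 533 normalized counts in the vehicle tumors and 654, 916 and 569 in the combination tumors, a log2 difference of 0.41 ± 0.36 that did not separate under all 5 scalings and was 0.22 without combination tumor 1270. Cd274, which encodes the checkpoint ligand PD-L1, measured 287, 137 and 119 against 464, 399 and 321 (1.22 ± 0.57, adjusted p = 0.652). Vehicle tumor 1269 was the highest vehicle tumor for Cd274.

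Promoter sequences are shown for the interferon-responsive genes whose separation did not hinge on the scaling. They are the 250 bases before the gene start, 5′ to 3′ on the strand of the gene, from RefSeq for GRCm38.p6, for the chemokine and interferon genes that separated under all 5 scalings and held the interferon-stimulated response element (ISRE) motif (GAAA, 2 bases of any kind and GAAA again) on either strand. They lie at chr5:92348890-92349139 on the minus strand for Cxcl10, chr16:10785537-10785786 on the minus strand for Socs1, chr3:142496684-142496933 on the plus strand for Gbp5 and chr3:142594597-142594846 on the plus strand for Gbp2b. Capitals mark the ISRE matches.
Cxcl10: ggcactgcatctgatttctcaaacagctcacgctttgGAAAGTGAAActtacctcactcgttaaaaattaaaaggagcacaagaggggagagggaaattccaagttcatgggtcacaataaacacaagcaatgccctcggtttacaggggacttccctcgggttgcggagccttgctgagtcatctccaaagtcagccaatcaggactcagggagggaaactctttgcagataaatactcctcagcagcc
Socs1: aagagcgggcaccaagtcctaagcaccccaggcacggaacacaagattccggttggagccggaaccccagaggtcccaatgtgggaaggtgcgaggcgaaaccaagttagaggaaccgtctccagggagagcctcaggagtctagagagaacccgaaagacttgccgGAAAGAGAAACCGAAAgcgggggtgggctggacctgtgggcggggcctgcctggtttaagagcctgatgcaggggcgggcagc
Gbp5: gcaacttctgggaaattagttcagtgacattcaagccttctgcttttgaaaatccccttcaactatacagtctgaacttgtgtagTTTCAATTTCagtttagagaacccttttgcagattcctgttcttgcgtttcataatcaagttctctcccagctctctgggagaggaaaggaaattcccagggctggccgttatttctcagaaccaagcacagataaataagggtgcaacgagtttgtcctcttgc
Gbp2b: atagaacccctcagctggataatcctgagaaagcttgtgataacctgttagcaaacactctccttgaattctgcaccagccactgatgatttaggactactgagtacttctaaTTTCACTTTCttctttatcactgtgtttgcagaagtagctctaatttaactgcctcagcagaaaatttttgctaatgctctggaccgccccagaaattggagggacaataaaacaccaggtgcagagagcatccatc
The match lay 213 to 204 bases before the start in Cxcl10, 165 to 156 in Gbp5 and 137 to 128 in Gbp2b, the last 2 on the opposite strand. Socs1 held 2 overlapping matches, at 83 to 74 and 77 to 68 bases. The Gbp5 window also held 2 matches to the gamma-activated site motif (TTC, 3 bases of any kind and GAA, which reads the same on both strands) and 1 to the NF-kappaB motif (GGGA, 1 base of any kind and TTTCC, on either strand).

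Promoters were found for 47 of the 56 interferon genes tested and for 18 of the 21 higher ones. The ISRE motif was in 33.3% of the 18 and 34.0% of the 47, a like share in the genes that separated and in the whole interferon group. It was in 8.64% of the 521 tested genes with a promoter, in 14.7% of the 95 of them that were higher in every combination tumor, and in 3.46% of all 27025 genes in the table. In the T cell group it was in 4.8% of the 21 higher genes and 3.8% of the 52 tested. The gamma-activated site motif was in 38.9% of the 18, 21.3% of the 47, 12.9% of the 521, 19 of the 95 and 8.13% of the 27025, and in 19.0% and 21.2% of the 21 and 52 T cell genes. These shares describe letters in a short window and say nothing about binding.

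**Figure D4:**
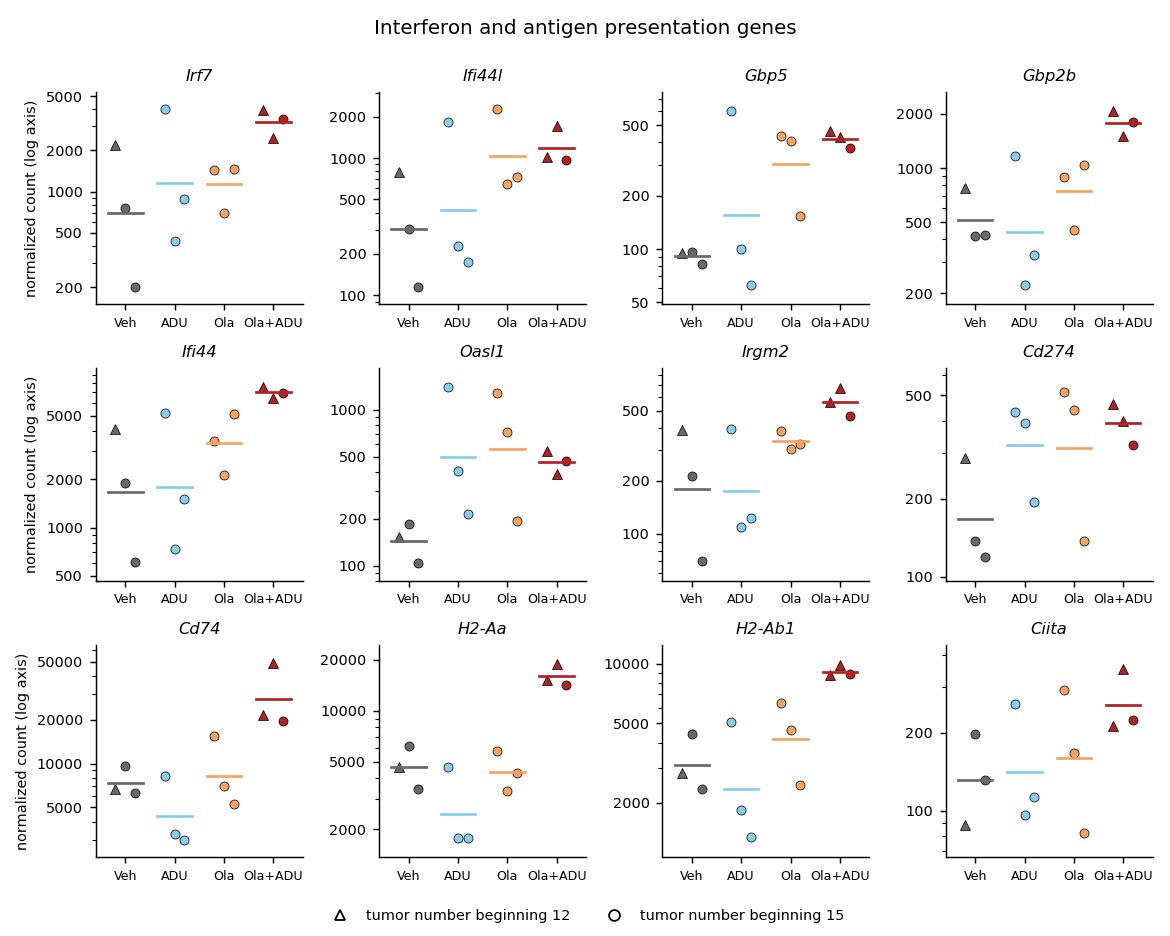
Normalized counts (log axis) of 8 interferon genes and 4 MHC class II genes (Cd74, H2-Aa, H2-Ab1, Ciita) in the 12 tumors, drawn as for the chemokines. For Irf7, Ifi44l and Ifi44 the vehicle tumor with a number beginning with 12 (triangle) lies near the combination tumors, whereas for Gbp5 the 3 vehicle tumors lie together at 82.4 to 96.6. H2-Aa and H2-Ab1 are higher in the combination tumors than in any other tumor shown.

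Antigen presentation genes were separated mainly through MHC class II, the molecules by which dendritic cells, macrophages, B cells and interferon-gamma-treated cells present peptides to CD4+ T cells. Of 11 class II genes tested, 9 (81.8%, beside 18.4% of all genes) were higher in every combination tumor (Cd74, H2-Aa, H2-Ab1, H2-Eb1, Ctss, H2-DMa, H2-DMb2, Ciita and H2-DMb1). Of these 9, all but H2-DMb1 separated under all 5 scalings. All 11 means were higher, and the median log2 difference was 0.998. At an unadjusted p below 0.05 by limma, 4 of the 11 were higher, beside 7.55% of all genes. Of 18 class I genes, 4 were higher (Psmb9, Mr1, Psmb8 and Tapbp), a share of 22.2% near that of all genes, and 1 was lower (Cd1d2).

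H2-Aa, the alpha chain of I-A, measured 4678, 6164 and 3474 normalized counts in the vehicle tumors and 15231, 18905 and 14123 in the combination tumors (1.78 ± 0.46, adjusted p = 0.278 by limma). H2-Ab1, its beta chain, measured 2830.1, 4447 and 2346 against 8758, 9775 and 8812 (1.56 ± 0.54, adjusted p = 0.436). Cd74, the invariant chain that escorts class II molecules, measured 6695, 9698 and 6254 against 21484, 49444 and 19764 (1.90 ± 0.56, adjusted p = 0.278). All 3 genes were separated by a wide gap, and combination tumor 1270 was the highest for each. H2-Eb1 measured 844, 2348 and 1207 against 2846, 3990.2 and 3417 (1.34 ± 0.70), the endosomal protease gene Ctss 1971, 2101 and 1579 against 4528, 3150.1 and 3929 (1.03 ± 0.55), and Ciita, the master transactivator of class II, 87.99, 198 and 132 against 213, 354 and 225 (0.96 ± 0.56). For Ciita, vehicle tumor 1529 came close to combination tumor 1251.

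In class I, Psmb9, a subunit of the immunoproteasome, measured 1652, 850.4 and 634 normalized counts in the vehicle tumors and 1669, 2782 and 1854 in the combination tumors (1.09 ± 0.60), so that vehicle tumor 1269 was just below combination tumor 1251. Mr1, which presents vitamin B metabolites to innate-like T cells, measured 882, 618 and 405 against 1342, 1699 and 926 (1.08 ± 0.42, adjusted p = 0.472). The class I heavy chain H2-K1 overlapped, with 46028, 13814 and 6941 against 37376, 46161 and 35476: its highest values were in vehicle tumor 1269 and combination tumor 1270. Cd1d2, a lipid-presenting molecule, was the only antigen presentation gene lower in every combination tumor, with 21.8, 52.03 and 25.6 against 17.01, 19.8 and 13.9 (-0.84 ± 0.70, and -0.47 without vehicle tumor 1529).

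Stromal genes went the other way in their means. Of 54 tested, 41 had a lower mean in the combination tumors, and the median log2 difference was -0.70, beside 0.21 over all genes. Of the 54, 3 (5.56%, beside 1.60% of all genes) were lower in every combination tumor (Cspg4, Thbs1 and Tgfb1) and 2 (3.70%, beside 18.4%) were higher (Vcam1 and Icam1). At an unadjusted p below 0.05 by limma, 0 were higher and 0 lower, beside 7.55% and 0.145% of all genes. The size of the median difference depended on vehicle tumor 1529, which had the highest vehicle value for 44 of the 54 genes. Without this tumor the stromal median was -0.06, with 23 higher and 29 lower means among 52 genes. The median of all genes was then 0.43, with 562 higher and 120 lower means, so the stromal median still lay below it. Without vehicle tumor 1269, which had the lowest vehicle value for 38 of the 54, the median was -1.09 and 27 genes were lower in every combination tumor. The 3 lower genes became 12 without combination tumor 1539 and 6 without vehicle tumor 1536, and the 2 higher genes became 4 without combination tumor 1270 or 1539 and 5 without vehicle tumor 1269 or 1529. Other scalings gave medians of -0.74 to -1.09 and 12 to 17 lower genes, except that subtracting a background left the count at 3.

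Cspg4, the proteoglycan NG2 of pericytes, measured 153, 569 and 285 normalized counts in the vehicle tumors and 55.1, 115 and 150.04 in the combination tumors (-1.56 ± 0.85, adjusted p = 0.693 by limma). Vehicle tumor 1269 and combination tumor 1539 met within 4 normalized counts at the edge. Thbs1, the matrix protein thrombospondin-1 that inhibits angiogenesis and activates latent TGF-beta, measured 3169.8, 6363 and 4848 against 3022, 1075 and 3131 (-1.09 ± 0.54, adjusted p = 0.652), and the same tumors, 1269 and 1539, met at the edge. Tgfb1, the cytokine itself, measured 1314, 1606 and 1457 against 1273, 1017 and 1270.00 (-0.30 ± 0.33, adjusted p = 0.969). Without combination tumor 1270 the differences were -0.58 for Thbs1 and -0.19 for Tgfb1. Cspg4 and Thbs1 were lower under all 5 scalings and Tgfb1 was not.

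Other matrix genes with large differences overlapped. Fn1 (fibronectin) measured 2658, 18645 and 10601 normalized counts in the vehicle tumors and 2129.7, 1857 and 4882 in the combination tumors (-1.59 ± 0.73, adjusted p = 0.638). Col1a1, the main fibrillar collagen chain, measured 7802, 44394 and 30532 against 7011, 6242 and 13797 (-1.38 ± 0.74). Over the 54 stromal genes the median difference was 0.10 among tumors with numbers beginning with 12 and -0.70 among those beginning with 15. Over the 21 endothelial genes it was 0.29 and -0.95, and over all 689 genes 0.48 and 0.12. Stromal and endothelial medians thus lay below that of all genes in both series. Vehicle tumor 1269 was the only vehicle tumor numbered from 12 and 1529 was numbered from 15, so series and single tumors cannot be told apart. In Fn1 and Col1a1 vehicle tumor 1269 lay among the combination tumors, and the log2 difference was -0.42 for Fn1 and -0.24 for Col1a1 among numbers beginning with 12, against -1.53 and -1.42 among those beginning with 15. The endothelial gene Pecam1 measured 346, 2359 and 500.1 against 388, 387 and 468 (-0.84 ± 1.35), and vehicle tumor 1529 alone was high. Without it the difference for Pecam1 was -0.01, and without vehicle tumor 1269 it was -1.39.

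Of the 21 endothelial genes, 2 (9.52%, beside 18.4% of all genes), Vcam1 and Icam1, were higher in every combination tumor. Vcam1, which binds lymphocytes through alpha-4 integrins, measured 132, 271 and 80.4 normalized counts in the vehicle tumors and 286, 318 and 322 in the combination tumors (1.11 ± 0.61, adjusted p = 0.693). Icam1, which binds the integrin LFA-1, measured 248, 242 and 105 against 297, 309 and 368 (0.80 ± 0.56, adjusted p = 0.835). Without vehicle tumor 1536 the differences were 0.70 for Vcam1 and 0.40 for Icam1, and in edgeR with TMM that of Icam1 was 0.36. Both are also carried by other cell types. Vcam1 separated under all 5 scalings and Icam1 did not. Itgal, the alpha chain of LFA-1 on leukocytes, measured 73.7, 72.8 and 68.6 against 178, 196 and 203 (1.41 ± 0.42, adjusted p = 0.278).

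**Figure D5:**
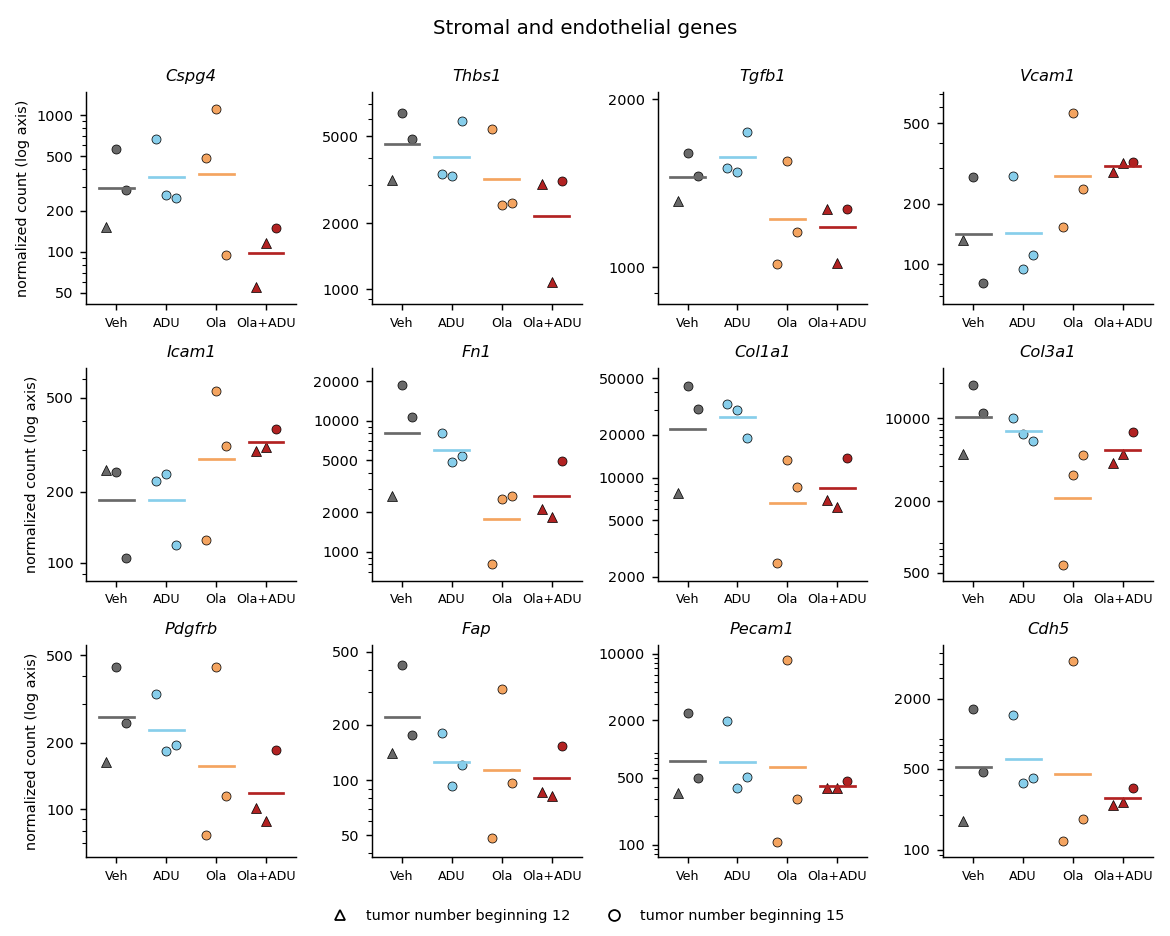
Normalized counts (log axis) of 12 stromal and endothelial genes in the 12 tumors, drawn as for the chemokines. In Fn1, Col1a1, Pecam1 and Cdh5 the 3 vehicle tumors spread more widely than the combination tumors, with tumor 1529 highest and tumor 1269 lowest, whereas Vcam1 and Icam1 are higher in all 3 combination tumors.

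The 5 epithelial genes overlapped between the groups. Epcam measured 13538, 8799.8 and 6724 normalized counts in the vehicle tumors and 12183, 14887 and 11669 in the combination tumors (0.47 ± 0.51, from 0.23 without vehicle tumor 1536 to 0.74 without 1269), and Cdh1 (E-cadherin) 7677, 4624 and 3997 against 5669.8, 4836 and 5830.2 (0.06 ± 0.36), a difference whose sign turned with median, quantile and TMM scaling. Trp53, deleted in the epithelial cells but intact in the host cells, measured 432, 1114 and 603 against 412, 559 and 562 (-0.39 ± 0.80, from -0.01 without vehicle tumor 1529 to -0.70 without 1269).

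Markers of other cell types gave 21 higher genes and 1 lower gene, Cdk1, among 105 tested, beside 18.4% and 1.60% over all genes. The share was 4 of 20 dendritic cell, 5 of 31 macrophage and monocyte, 4 of 15 neutrophil and mast cell and 7 of 18 pan-leukocyte genes. Clec7a (dectin-1), a receptor for fungal glucans on dendritic cells and macrophages, measured 25.2, 53.5 and 38.1 normalized counts in the vehicle tumors and 131, 151 and 107 in the combination tumors (1.76 ± 0.48, adjusted p = 0.278 by limma). Il12b, a subunit of interleukin-12 and interleukin-23, measured 19.1, 23.8 and 13.2 against 116, 37.9 and 63.1 (1.79 ± 0.53, adjusted p = 0.278). Fpr2, a chemotactic receptor of neutrophils and monocytes, measured 40.9, 41.6 and 24.9 against 167, 101 and 104 (1.76 ± 0.48, adjusted p = 0.278). These 3 genes had wide gaps between the groups, in part at low levels. The other 18 higher genes included Itgax, Relb, Cybb, Cd14, Fcgr4, Abcg1, Csf3r, Camp, Elane, Itgal, Ly9, Slamf6, Selplg, Itga4, Lcp1 and St6gal1, and these had differences of 0.49 to 1.41. Of 11 B cell genes, St6gal1 alone was higher, and the macrophage mannose receptor gene Mrc1, a marker of tissue macrophages, ran from 70.3 to 1473 in the vehicle tumors and from 137 to 227 in the combination tumors.

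Of 324 genes on no list, 30 were higher (9.26%, beside 18.4% of all genes) and 6 lower (1.85%, beside 1.60%) in every combination tumor. Ltb (lymphotoxin beta), a lymphocyte cytokine that shapes lymphoid tissue, measured 35.5, 49.1 and 29.1 normalized counts in the vehicle tumors and 122, 157 and 112 in the combination tumors (1.77 ± 0.53, adjusted p = 0.278). Cfb, factor B of the alternative complement pathway, measured 395, 372 and 130.2 against 804, 932 and 684 (1.58 ± 0.54, adjusted p = 0.407). Both separated under all 5 scalings. Cyfip2, a regulator of actin, measured 42.3, 56.5 and 32.6 against 110.2, 120.4 and 125 (1.45 ± 0.58), and Cmpk2, a mitochondrial nucleotide kinase induced by interferon, 598, 239 and 113 against 764, 648 and 609.99 (1.40 ± 0.62). Without vehicle tumor 1536 the difference for Cmpk2 was 0.82. For Cmpk2 the gap was narrow because vehicle tumor 1269 was high, as for the interferon genes.

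The inflammatory cytokines Tnf, Il1b and Il1a, which NF-kappaB controls, were among the 30, with Tnf at 71.6, 44.6 and 43.6 normalized counts against 135, 117 and 91.01 (1.11 ± 0.48), and so was Il1rn, the antagonist of interleukin-1, at 326, 357 and 277 against 949, 678 and 873 (1.37 ± 0.50). The remaining higher genes included Lilra5, Tnfsf13b, S100b, Stat4, Batf, Il21, Il10ra, Nfkbia, Il23a, Cd180, Il21r, Myd88, Bcl10, Il10, Atg12, Nfatc3, Tfe3, Traf2, Pdgfc, Ep300 and Hmgb1, with differences of 0.25 to 1.07. The receptor gene Il1r1 was lower, at 268, 1383 and 380.3 against 185, 211 and 254 (-1.27 ± 0.91), with the vehicle mean set by tumor 1529. The others lower included Itga6, Cd276, Tmed1 and Ecsit, with differences of -0.27 to -0.42. Il23a was the gene just inside the rule, with a lowest combination value of 56.6 and a highest vehicle value of 56.5, and Lcn2 the gene just outside it, with 216831 against 217625.

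Several of the genes above were also listed by the study from these same tumors, namely H2-Aa, H2-Ab1, Cd74, Mr1, Ccl22, Xcl1, Slamf7, Gbp2b, Ltb, Cfb, Clec7a, Itgal, Selplg and St6gal1, so their place here is not independent evidence for them.

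Single-agent tumors were set beside the 127 higher genes as a description, with no test. ADU-S100 tumor 1506 was at or above the lowest combination value for 80 of the 127 genes, and ADU-S100 tumors 1512 and 1513 for 31 and 21. Olaparib tumors 1510, 1517 and 1521 were so for 60, 59 and 11. Above the highest vehicle value, the counts in the same order were 109, 58 and 38 for ADU-S100 and 81, 82 and 42 for olaparib. The 127 were chosen by their combination and vehicle values, and that choice shapes both kinds of count. For 22 of the 127 genes the combination tumors lay above all 6 single-agent tumors as well, a count made within the 127 only. These were 6 antigen presentation genes (Cd74, H2-Aa, H2-Ab1, H2-DMa, H2-DMb2 and Mr1), 5 interferon genes (Gbp2b, Ifi35, Ifi44, Irgm2 and Socs1), Ccl22, the T cell group's Tnfsf10, the death receptor ligand TRAIL, and Cd14, Clec7a, Cybb, Itgal, Selplg, Cfb, Cyfip2, Ltb and Tfe3. In the T cell and chemokine groups these were 1 of the 28 and 1 of the 12 higher genes. All 6 single-agent tumors had numbers beginning with 15, as had 1 of the 3 combination tumors, and the part of the number series in these counts was not tested. Olaparib tumor 1517 had the fewest recovered counts of the study, 106206, and 1 count in it was worth 10.5 normalized counts.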

How the data were processed

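RNA (100 ng per tumor) from 12 tumors, 3 per group, was measured with the nCounter mouse PanCancer Immune panel, and each tumor was assigned to its group from its title. The authors deposited a linear signal, namely normalized counts made with nSolver 4.0 by quality control, background correction and scaling to positive controls and to the housekeeping genes' geometric mean. Counts under the negative controls were dropped, by a limit not given in the sources used here. That step and the scaling could not be repeated, and other scalings were applied on top.

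Values were analysed as log2(normalized count + 1) after keeping genes with at least 20 in at least 3 tumors. Limma 3.58.1 (R 4.3.3) fitted a mean per group over 12 tumors, and p-values were adjusted by Benjamini-Hochberg over 689 genes with a threshold of 0.05. The p-values measure the spread between single tumors. Counts were recovered as whole multiples of a step per tumor, within 0.01 of a count, for 99.87 to 100% of values, and tested with edgeR 4.0.16 (quasi-likelihood). In 7 of the 12 tumors the smallest value was a floor of 1 or more than 1 step, so there the step was found from the other low values and is less sure. A total of counts says how many probes were counted, not how many cells were sampled. Scripts were tested on simulated data. The subtracted background was the median of the 30 genes with the lowest means.

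Genes were described by group from lists written from gene nomenclature. The members, lists and rules were chosen with earlier results of these data known. Named genes were, per group, the 7 with the largest difference among those separated in each direction, the 5 with the smallest p, the 5 largest of no list, the genes at both edges of the rule and a fixed set (Tmem173, Ifnb1, Ifng, Trp53, Ptprc, Cd3e, Cd8a, Cd4, Epcam, Cdh1 and Pecam1). Others were named after their values were seen, and a few genes are not reported here. Promoter windows came from RefSeq (GRCm38.p6) and were found for 521 of the 689 genes. Symbols were used as deposited. The alternatives were pseudocounts, filters, scalings, an intensity trend, a fit to 6 tumors, the methods' t-test, edgeR, leaving out each tumor and a block for the tumor number series.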

Additional observations from a re-analysis of the deposited data

How the results depend on the processing

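The counts of separated genes depended on the scaling. The values were, for median scaling, quantile normalization and TMM in this order, 77, 78 and 67 genes higher and 38, 52 and 83 lower in every combination tumor. Higher genes of the T cell group, which includes cytotoxic and NK cell genes, numbered 18 with quantile normalization and 14 with a filter at 50, which tests fewer genes. Interferon genes higher numbered 7 with median scaling and 6 with TMM. Stromal genes higher numbered 1 under each of the 3 scalings, and stromal genes lower 14, 12 and 17. The cause of these shifts was not tested.

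Leaving out each tumor in turn gave 122 to 250 genes higher and 11 to 99 lower in every combination tumor, and by group 12 to 21 chemokine, 25 to 50 T cell and 21 to 34 interferon genes higher, 2 to 5 stromal genes higher and 3 to 27 lower. A comparison of 3 tumors with 2 separates more genes by construction.

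At an unadjusted p below 0.05, 33 genes were higher with quantile normalization, 103 in the fit to the 6 tumors, 34 in edgeR with TMM and 82 by the methods' t-test, and 24 to 66 when each tumor was left out in turn. Lower genes numbered 13 with median scaling, 17 with quantile normalization, 2 with a background subtracted, 2 with a pseudocount of 10, 3 with an intensity trend, 4 in the fit to the 6 tumors, 0 with the tumor number series as a block, 4 in edgeR with the authors' factors, 28 in edgeR with TMM and 4 by the methods' t-test, and 0 to 11 when each tumor was left out. After adjustment, the fit to the 6 tumors called 2 genes (Cxcl11 and Gbp5) and the methods' t-test 3, and the other settings 0. The log2 difference of Cdh1 changed sign to -0.056 with the tumor number series as a block, -0.42 in edgeR with TMM, -0.15 with median scaling, -0.23 with quantile normalization, -0.029 without vehicle tumor 1529 and -0.13 without 1536, within a range of -0.13 to 0.34 when a tumor of either group was left out. No other gene named by the rule changed sign under these settings. No paired analysis was possible because the groups share no tumor numbers.

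Low counts limit part of the values: 15 of the 127 higher genes had at most 20 recovered counts in every vehicle tumor, and 12 in at least 1 combination tumor. Each group holds 3 tumors.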
